A study of Homo sapiens with 4 samples.

Results

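Of the 8636 circular RNAs (circRNAs) counted in osteoblasts before and during mineralization, 682 had junction reads at each of the 4 time points, and these 682 are described here from one time point to the next. They were chosen by their raw counts alone, as the circRNAs whose count was above 0 on day 0, day 3, day 6 and day 9. The cells were hFOB 1.19, an immortalized human fetal osteoblast line that divides at a permissive temperature and stops dividing and differentiates when it is warmed. The day 0 library came from cells kept at the permissive temperature, which the submitters call the control, and the libraries of days 3, 6 and 9 came from cells undergoing mineralization at the raised temperature. All 4 groups carry the temperature-sensitive large T antigen that immortalizes the line, and no other treatment is given in the labels. Each time point has 1 library of total RNA depleted of ribosomal RNA, and all 4 come from the same cell line, so no comparison between days has a replicate check and no p-value can be given. Warming, time in culture and any slowing of division came together between day 0 and day 3 and cannot be told apart, whereas days 3, 6 and 9 share the raised temperature. Exit from the cell cycle was not measured.

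A circRNA forms by back-splicing, in which the end of an exon is joined to the start of the same or an earlier exon, so that the RNA becomes a closed ring. Rings have no free ends for exonucleases to attack, and many outlive the linear transcript of the same gene. CircRNAs are known to build up in cells that have stopped dividing, and some of them bind microRNAs or proteins. Only reads that cross the back-splice junction tell a ring from its linear transcript, which makes the counts small. The files number the circRNAs (hg38_circ) without a host gene, a position or a sequence, so no gene name or sequence is paired with them here, and at most 2 numbers that were higher and 2 that were lower are printed.

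Junction reads summed to between 17745 and 29280 per library, and the number of circRNAs listed per library went from 2629 on day 0 to 3244, 3540 and 4064 on days 3, 6 and 9. The smallest count above 0 was 2 in every library, and no circRNA had a count of 1, so that a circRNA listed at 0 could have had a single read. The rule on membership therefore cut at 2 reads. Just inside it were 210 members whose lowest count was 2, which is 30.8% of the 682, and 103 members whose lowest count was 3. From day 0 to day 9, a count of exactly 2 was held by 114, 86, 51 and 59 members. Just outside were 758 circRNAs listed at 0 in 1 library and above 0 in the other 3, with a median of 12 reads over all libraries against 31.5 for the members. Day 0 was the library at 0 for 452 of these, day 3 for 126, day 6 for 101 and day 9 for 79. Of the remaining circRNAs, 1279 were listed in 2 libraries and 5917 in 1.

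The members carried most of the circRNA signal although they were a minority of the circRNAs. They made up 25.9% of the circRNAs listed on day 0 and 16.8% of those listed on day 9. Their reads summed to 11881, 11051, 13382 and 16813 from day 0 to day 9. This was 67.0% of the junction reads on day 0 (exact binomial 95% confidence interval 66.3 to 67.6), then 58.0% (57.3 to 58.7), 57.9% (57.3 to 58.5) and 57.4% (56.9 to 58.0). The share was highest on day 0, and the intervals of the later days overlapped. The rule fixes this in part, since members had to have reads on day 0, the library with the fewest circRNAs listed, and the intervals do not cover that.

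Set against the clean reads that the study lists for each library, the members had 111.1 junction reads per 1000000 clean reads on day 0 (exact Poisson 95% confidence interval 109.1 to 113.1). They had 110.9 by day 3 (108.9 to 113.0), 127 by day 6 (125 to 129) and 157 by day 9 (155 to 159). The other circRNAs had 54.8, 80.4, 92.2 and 116 on the same scale. Between day 0 and day 3 the members as a sum differed by a ratio of 0.999 (0.973 to 1.02), and the other circRNAs by 1.47 (1.42 to 1.52). These 2 values are a description only, because the same day 0 counts chose the members and left to the others many circRNAs listed at 0 on that day. From day 3 to day 6 the ratio was 1.14 for the members (1.11 to 1.17) and 1.15 for the others (1.11 to 1.18), and from day 6 to day 9 it was 1.24 (1.21 to 1.27) and 1.26 (1.23 to 1.30). A single circRNA set the first of these values. Without the most abundant member, the sum was 86.6 on day 0 and 97.5 on day 3, 1.13-fold higher (1.09 to 1.16). In bulk RNA, more circRNA per cell and less of the other RNA that fills the library cannot be told apart. All intervals given here cover counting error only, since each day has 1 library. They also treat each read as a separate molecule, because PCR copies cannot be told apart without identifiers.

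**Figure D1:**
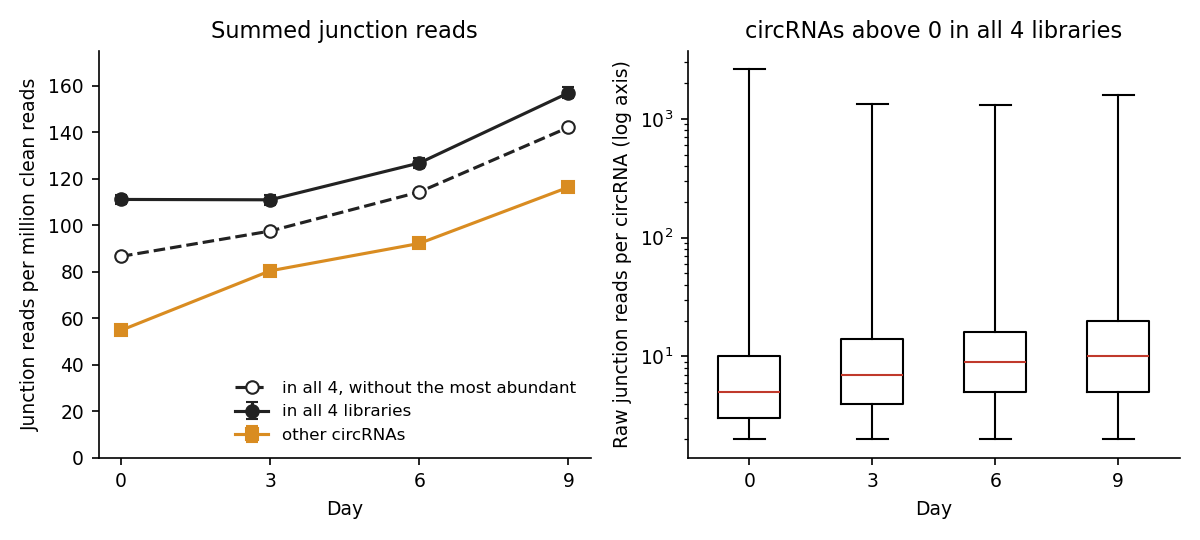
Left, junction reads per 1000000 clean reads on each day for the 682 circRNAs above 0 in all 4 libraries (black), the same without the most abundant of them (open) and all other circRNAs (orange), with exact Poisson 95% intervals on the filled symbols. Right, raw junction reads per circRNA for the 682 on a log axis, with the median (red), the quartiles (box) and the full range (whiskers). The black line is level from day 0 to day 3 and then higher, and the median count goes from 5 on day 0 to 10 on day 9.

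Most members were rare. From day 0 to day 9 the median count was 5, 7, 9 and 10, and the third quartile was 10, 14, 16 and 20. At least 20 reads were reached by 78, 115, 140 and 182 members, and 61 had at least 20 in every library. The most abundant member took 22.0% of the members' reads at the start and 12.1%, 9.83% and 9.45% of them later. The order of the members by count was closer between the later libraries than between the first 2. Spearman's rho across the 682 was 0.62 for days 0 and 3, 0.78 for days 3 and 6 and 0.77 for days 6 and 9. These values describe circRNAs measured in the same libraries, and the low counts limit them.

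The counts decide how small a change could be seen. Each pair of successive days was compared as the ratio of the scaled counts with an exact conditional binomial (Clopper-Pearson) 95% interval, and a member was called higher or lower when the ratio was at least 2-fold and the interval excluded no change. With 2 reads on day 0, 11 reads or more on day 3 were needed for a call, a scaled ratio of 4.76. With 5 reads 17 were needed, with 10 reads 25, and with 20 reads 47, which is a scaled ratio of 2.03. A member with 5 reads on day 0 could not be called lower on day 3 at any count above 0, and one with 10 reads needed a count of 2. With 5 reads or fewer in the earlier library, a call could thus only be higher, whereas a member low in the later library could be called lower. The median reads of the 2 libraries together were 13 for day 3 against day 0, 15 for day 6 against day 3 and 19 for day 9 against day 6.

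The direction of the calls depends on the scaling, so each count is given under 2 of them. The median-of-ratios size factors of DESeq2 were 0.782, 0.904, 1.12 and 1.36 from day 0 to day 9. They are computed from the circRNAs above 0 in all libraries, which are the members themselves, so they hold the middle of this set near 0 by construction. Clean reads compare the members with all RNA sequenced. Against median-of-ratios, clean reads raise every log2 ratio by 0.31 for day 3 against day 0, 0.22 for day 6 against day 3 and 0.26 for day 9 against day 6. The median log2 ratio of the members was accordingly 0.01, 0.02 and -0.02 by median-of-ratios, and 0.32, 0.24 and 0.24 by clean reads. Over all circRNAs above 0 in both libraries of a pair, members included, it was -0.21, -0.15 and -0.17 by median-of-ratios, and 0.10, 0.07 and 0.09 by clean reads.

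From day 0 to day 3, the step that includes the change of temperature, 47 members were called higher and 28 lower by median-of-ratios. Over the 4892 circRNAs listed in either library, 4.74% were called higher and 3.21% lower by the same rule, against 6.89% and 4.11% of the members, whose deeper counts allow more calls. Those listed in either library include, here and in the later steps, circRNAs at 0 in 1 of the 2, which no member can be. Over the 981 circRNAs above 0 in both, members included, 4.79% were called higher and 3.36% lower. By clean reads 76 members were higher and 14 lower, beside 5.36% and 1.78% of all circRNAs listed. Clean reads raise every ratio of this step, so by construction all 47 that were higher by median-of-ratios stayed higher. Of the 28 that were lower, 14 remained. The calls split by depth. Among the 135 members with 20 to 49 reads in the 2 libraries together, 25 were higher and 11 lower. Among the 30 members with 100 reads or more, 1 was higher and 9 were lower, but by clean reads 2 were higher and 3 lower. Of the 473 members under 20 reads, 10 were higher and 5 lower.

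A ratio alone, without its interval, would have given many more. On the same step 121 members were at least 2-fold higher and 96 at least 2-fold lower, beside 14.8% in each direction over the 981 circRNAs above 0 in both libraries. For 142 of these 217 members the interval included no change. Among the 299 other circRNAs above 0 in both libraries, which lacked reads on day 6 or day 9, 0 were called higher and 5 lower, but their median of reads in both libraries together was 6. Such differences were mostly not detectable at this depth.

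From day 3 to day 6, at constant temperature, 12 members were called higher and 19 lower by median-of-ratios. Over the 5398 circRNAs listed in either library, 1.85% were called higher and 2.87% lower, against 1.76% and 2.79% of the members. Over the 1386 circRNAs above 0 in both, members included, 0.87% were called higher and 2.02% lower. The 704 others among these gave 0 higher and 9 lower, at a median of 7 reads in both libraries together. By clean reads the balance turned, with 30 members higher and 6 lower, beside 3.2% and 1.46% of all circRNAs listed. It turned with the TMM factors of edgeR as well, to 19 higher and 10 lower. The number at least 2-fold by ratio alone was 72 higher and 69 lower, beside 9.02% and 12.1% over the 1386 circRNAs above 0 in both libraries. The interval included no change for 110 of these 141. Among the 41 members with 100 reads or more in both libraries together, 1 was called higher and 0 lower.

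From day 6 to day 9, 19 members were called higher and 28 lower by median-of-ratios, beside 2.04% and 2.78% of the 5928 circRNAs listed in either library. These are 2.79% and 4.11% of the members, beside 1.55% and 2.45% of the 1676 circRNAs above 0 in both libraries, members included. The 994 others among these gave 7 higher and 13 lower, at a median of 8 reads in both libraries together. By clean reads 39 members were higher and 14 lower, beside 3.59% and 1.55% of all circRNAs listed. By ratio alone 71 were higher and 89 lower, beside 9.96% and 13.4% over the 1676 above 0 in both libraries, and the interval included no change for 113 of these 160. By median-of-ratios, the 361 members under 20 reads in the 2 libraries together gave 4 higher and 15 lower calls. Among members with at least 20 reads in any library, the balance turned, with 11 higher and 8 lower. Clean reads raise every ratio in both later steps, so by construction no higher call by median-of-ratios could be lost. The 12 members higher from day 3 to day 6 and the 19 higher from day 6 to day 9 all remained by clean reads. Of the 19 lower from day 3 to day 6, 6 remained, and of the 28 lower from day 6 to day 9, 14 remained. Over the 3 steps, 541 members were called in none by median-of-ratios, which is 79.3%, and 520 in none by clean reads.

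**Figure D2:**
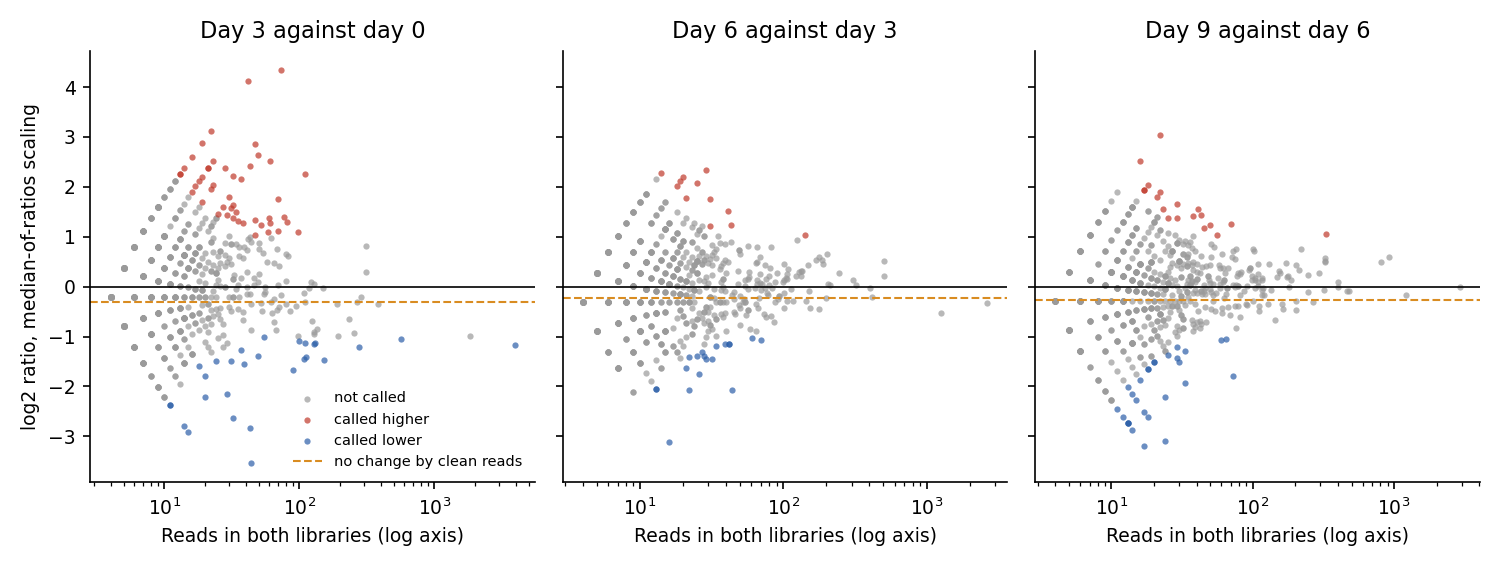
The log2 ratio of each of the 682 circRNAs between successive days by median-of-ratios scaling, against its reads in the 2 libraries together on a log axis, with members called higher in red and called lower in blue. The dashed line marks the log2 ratio that would be no change by clean reads, and the points widen at low reads, where most lie within their counting error. Called members with over 100 reads lie mostly below 0 on day 3 and are few on the later days.

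**Figure D3:**
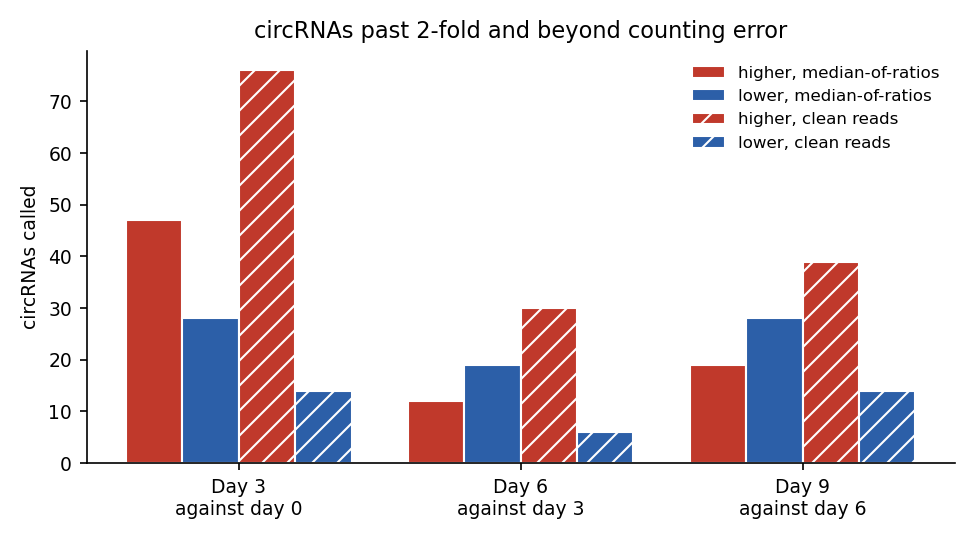
Number of circRNAs called higher (red) and lower (blue) in each step, by median-of-ratios (plain) and by clean reads (hatched). Calls are most numerous for day 3 against day 0, and the lower calls outnumber the higher ones in the other steps by median-of-ratios but not by clean reads.

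The single largest log2 ratio in either direction arose between day 0 and day 3. By the rule for printing numbers, the members with the highest lower bound and the lowest upper bound of any step are named. The circRNA hg38_circ_0001212 had 3 reads on day 0 and 70, 81 and 62 on days 3, 6 and 9. Its ratio of day 3 to day 0 was 20.2 on the scaled counts, a log2 ratio of 4.34 (2.73 to 6.65), and it was high in all 3 libraries after warming. From day 6 to day 9 its log2 ratio was -0.67 (-1.17 to -0.17) by median-of-ratios and -0.41 (-0.91 to 0.09) by clean reads. The circRNA hg38_circ_0002605 had 2, 40, 34 and 41 reads from day 0 to day 9, with a log2 ratio of 4.11 (2.17 to 7.21) for day 3. Its later steps had intervals that included no change.

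The 2 members with the lowest upper bounds also changed by day 3, with low counts afterwards. The circRNA hg38_circ_0000095 had 40 reads on day 0 and 4, 12 and 10 later, with a log2 ratio of -3.53 (-5.48 to -2.06) for day 3 against day 0. The circRNA hg38_circ_0002338 had 37 reads on day 0 and 6, 11 and 14 later, with a log2 ratio of -2.83 (-4.37 to -1.58). By clean reads these were -3.22 and -2.52, still called lower. For both, day 0 was the only library above 14 reads, and the intervals of the 2 later steps included no change.

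Many leading members of the later steps had fewer than 30 reads in either library. From day 3 to day 6 the highest lower bound belonged to a member with 4, 4, 25 and 8 reads from day 0 to day 9, a log2 ratio of 2.34 (0.80 to 4.32). The next had 4, 4, 21 and 23 reads, and the third had 25, 40, 102 and 145, with a log2 ratio of 1.04 (0.50 to 1.61). The lowest upper bounds of that step belonged to members with 16, 34, 10 and 33 reads and with 11, 14, 2 and 20 reads. The latter, with a log2 ratio of -3.11 (-6.29 to -0.99), also had the highest lower bound from day 6 to day 9, with 3.04 (1.0 to 6.18). Both of its values rest on the 2 reads of the day 6 library, which the steps share. From day 6 to day 9 the next highest was a member with 53, 56, 94 and 238 reads, whose log2 ratio was 1.06 (0.71 to 1.42). The lowest upper bounds were those of members with 8, 11, 21 and 3 reads, with 7, 3, 15 and 2 reads, and with 22, 36, 54 and 19 reads. The last of these had a log2 ratio of -1.79 (-2.63 to -1.01) on more reads than the other two.

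The 5 most abundant members went in opposite directions. The first had 2618, 1339, 1315 and 1589 reads from day 0 to day 9. Its log2 ratio of day 3 to day 0 was -1.18 (-1.27 to -1.08) by median-of-ratios and -0.86 (-0.96 to -0.77) by clean reads, below 0 on both scales but past 2-fold only on the first. From day 3 to day 6 it was -0.33 (-0.44 to -0.22) and -0.11 (-0.22 to 0.00), and from day 6 to day 9 -0.01 (-0.12 to 0.10) and 0.25 (0.15 to 0.36). The direction of its last step therefore depended on the scaling.

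The member second in abundance had 1169, 679, 585 and 631 reads, with log2 ratios of -0.99 (-1.13 to -0.86), -0.52 (-0.68 to -0.36) and -0.17 (-0.34 to -0.01) by median-of-ratios. By clean reads its last value was 0.09 (-0.08 to 0.25), so that direction too depended on the scaling. The fifth had 361, 202, 216 and 246 reads, with -1.05 (-1.30 to -0.79) from day 0 to day 3 and intervals that included no change afterwards. The third and the fourth had more reads in each later library. The third had 130, 183, 325 and 593 reads, with log2 ratios of 0.28 (-0.05 to 0.62), 0.52 (0.26 to 0.79) and 0.59 (0.39 to 0.79). The fourth had 102, 208, 299 and 511, with 0.82 (0.47 to 1.18), 0.22 (-0.04 to 0.48) and 0.49 (0.28 to 0.70), and by clean reads it was called higher on day 3 with 1.13 (0.78 to 1.49). By day 9 the second and the third were close, at 465 and 437 scaled reads, where on day 0 they had 1495 and 166.

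**Figure D4:**
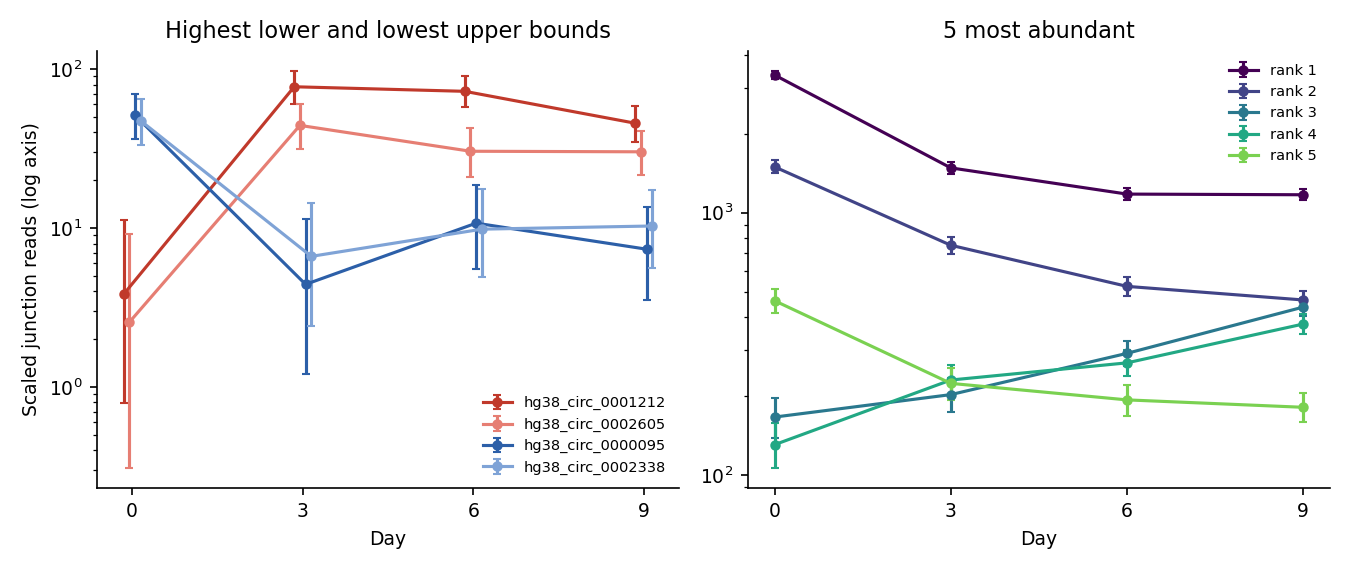
Scaled junction reads (counts divided by the size factor, log axis) by day, with exact Poisson 95% intervals. Left, the 2 circRNAs whose interval had the highest lower bound and the 2 whose interval had the lowest upper bound in any step, which cross between day 0 and day 3, and right, the 5 most abundant by reads over all libraries, of which ranks 1, 2 and 5 are lower and ranks 3 and 4 higher after day 0.

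The first and the last step share no library, so the members called in both can be counted. By median-of-ratios 1 member was called in both, which is 1.33% of the 75 called from day 0 to day 3 and 2.13% of the 47 called from day 6 to day 9. Over all 682 members, 6.89% were called higher and 4.11% lower in the first step. In the last step these shares were 2.79% and 4.11%. The member called in both had 3, 13, 16 and 40 reads. It was higher in both steps, with log2 ratios of 1.91 (0.04 to 4.36) and 1.04 (0.17 to 1.98). By clean reads 5 members were called in both, all higher in each, which is 5.56% of 90 and 9.43% of 53. Over all 682 members by clean reads, 11.1% were called higher and 2.05% lower in the first step. In the last step these shares were 5.72% and 2.05%. With so few shared members, the overlap is a description only.

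The 61 members with at least 20 reads in every library have less counting error than most members. This minimum also held on day 0, where the fewest members, 78, reached 20 reads. It leaves out members that were low on day 0 and higher later, so their highest days follow in part from the rule. By median-of-ratios, the highest scaled count fell on day 0 for 37 of them, and on days 3, 6 and 9 for 3, 6 and 15. By clean reads it fell on day 0 for 21, and on days 3, 6 and 9 for 2, 8 and 30. Few were highest on day 3 or day 6 by either scaling. By median-of-ratios, the ratio of the highest to the lowest day among them had a median of 2.13 and ranged from 1.16 to 4.49, and 36 of the 61 spanned 2-fold or more. For the 682 together the highest day was spread more evenly by median-of-ratios, with 200, 147, 149 and 186 members from day 0 to day 9, while by clean reads it was 102, 107, 170 and 303.

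The third and the fourth most abundant members belong to a run of 9 members with consecutive numbers, the longest such run among the 682. This run was picked out after its values were seen, and the files do not say how numbers were given or whether neighbours share a gene. Its reads summed to 516, 763, 1255 and 2304 from day 0 to day 9. As a share of the members' reads it went from 4.34% to 6.90%, 9.38% and 13.7%. The summed log2 ratio was 0.36 (0.19 to 0.52) for day 3 against day 0, 0.41 (0.28 to 0.54) for day 6 against day 3 and 0.59 (0.50 to 0.69) for day 9 against day 6 by median-of-ratios, and 0.67, 0.63 and 0.85 by clean reads. The lowest of the 9 had 16, 16, 33 and 68 reads and the highest on day 9 had 130, 183, 325 and 593.

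Within the run the members moved alike on the later days. From day 6 to day 9 all 9 had a log2 ratio above 0, between 0.43 and 1.06, and for all 9 the interval lay above no change, beside 2.24% of the circRNAs listed in either library. From day 3 to day 6 all 9 were above 0, between 0.22 and 0.74, and the interval lay above no change for 4, beside 2.02%. From day 0 to day 3 they ranged from -0.21 to 1.11, with 6 above 0 and the interval above no change for 2, beside 4.82%. By clean reads all 9 were above 0 in that step too. In none of the steps did an interval lie below no change for any of the 9, beside 3.43%, 2.98% and 2.85% of the circRNAs listed. The 9 have more reads than most circRNAs listed, and more reads narrow the interval, so these shares are not at like depth. Among all 682 members the interval lay above no change for 51, 21 and 30 in the 3 steps. It lay below no change for 39, 25 and 32. One of the 9 is the member with 53, 56, 94 and 238 reads that was among the leading ones on day 9. Across the 92 pairs of members with adjacent numbers, Pearson's r of the log2 ratios was 0.08, 0.04 and 0.15 in the 3 steps, and 0.08, 0.00 and 0.10 over the 84 pairs outside the run. Most of these ratios rest on few reads, and counting error pulls r towards 0. These values therefore cannot decide whether neighbouring numbers go together in general. Without the 9, the remaining 673 members gave 46 higher and 28 lower, 12 and 19, and 18 and 28 calls in the 3 steps.

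**Figure D5:**
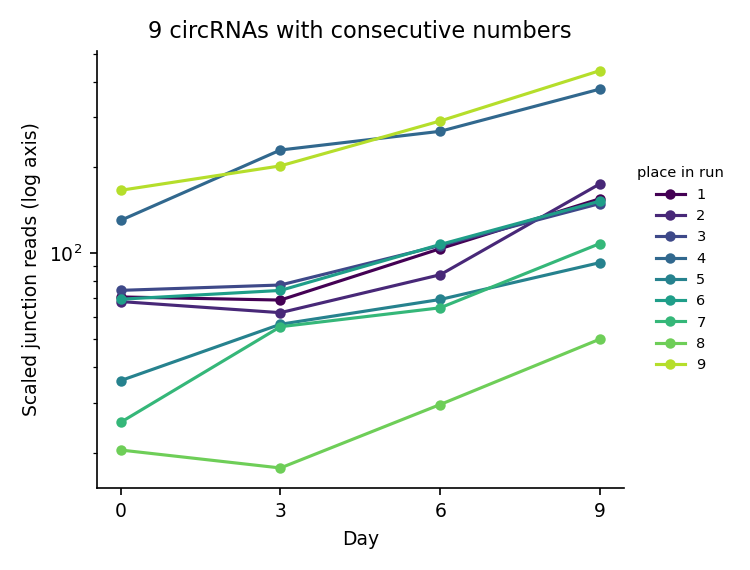
Scaled junction reads (counts divided by the size factor) on a log axis by day for the 9 circRNAs with consecutive numbers, one line each, numbered by their place in the run. All 9 are higher on day 6 than on day 3 and higher again on day 9, while 3 of them are lower on day 3 than on day 0.

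The mRNA tables of the same time points, given as FPKM, fragments scaled to transcript length and sequencing depth, show what linear RNA did beside the circRNAs. Log2 ratios of FPKM were taken after 1 was added, which understates changes at low levels. Among 13 expressed factors known to promote or restrain back-splicing, 1 was past 2-fold from day 0 to day 3, beside 8.13% of 12859 genes higher and 5.3% lower. This was HNRNPM, a splicing regulator, with 177 FPKM on day 0 and 71.4, 61.4 and 64.2 later (log2 ratio -1.30 for day 3). The median log2 ratio of the 13 was -0.67, against -0.08 for all genes. QKI, which binds introns beside circularized exons and promotes ring formation, had 138 FPKM on day 0 and 173, 171 and 165 later. The helicase DHX9 and the editing enzyme ADAR, which unwind or edit paired introns and so restrain back-splicing, had 73.2, 38.8, 33.0 and 31.7 FPKM and 108, 79.0, 61.2 and 55.9 FPKM from day 0 to day 9. None of the 13 was past 2-fold from day 3 to day 6 or from day 6 to day 9, where 0.607% and 0.381% of genes were higher and 0.443% and 0.163% lower.

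Among genes for export and turnover of circRNAs, DDX39A, a helicase in circRNA export, was past 2-fold lower from day 0 to day 3, with 95.9 FPKM on day 0 and 34.5, 34.4 and 36.2 later. No gene of that list was past 2-fold in the later steps. Of 12 proliferation genes, 5 were past 2-fold lower from day 0 to day 3 and 0 were higher, beside 5.3% and 8.13% of 12859 genes. These were the cyclins CCNB1 and CCNA2 (225 to 36.4 FPKM and 102 to 38.9 FPKM), the mitotic kinases PLK1 and BUB1 (130 to 8.02 FPKM and 61.2 to 20.2 FPKM) and the proliferation antigen MKI67 (116 to 52.3 FPKM). The replication factor PCNA went from 159 to 313 FPKM, and TYMS, also of this list, from 106 to 172 FPKM. None of the 12 was past 2-fold in the later steps, over which the members went from 110.9 to 157 junction reads per 1000000 clean reads. The part of any of these genes in the circRNA levels was not tested.

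The osteoblast label was borne out in part by its markers. The matrix genes COL1A1 (777, 1974, 1587 and 1146 FPKM from day 0 to day 9) and SPARC (1113, 1469, 1351 and 1275 FPKM) were high in every library. COL1A2 had 125, 856, 753 and 561 FPKM, and ALPL had 0.294, 4.32, 4.35 and 4.18 FPKM. The transcription factor RUNX2 had 7.37, 26.2, 19.3 and 18.2 FPKM. The osteoblast genes SP7, BGLAP and IBSP stayed under 1 FPKM on all days. PTPRC, PECAM1, CDH5, EPCAM and KRT5, which mark blood cells, endothelium and epithelium, were under 1 FPKM in every library. Of the 6 markers of other cells, CD68, a lysosomal protein used as a macrophage marker, was the exception, with 16.2, 37.5, 65.1 and 90.6 FPKM from day 0 to day 9, so that it was higher in each later library as the members were by clean reads from day 3 on. Its part in the circRNA levels was not tested.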

How the data were processed

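Osteoblast RNA from 4 time points was used, grouped by the day in the labels and with 1 library per day. Per the study's methods, ribosomal RNA was removed and the callers were CIRI2 and find_circ. The methods mention RNase R for mRNA libraries and not for circRNA ones, and whether both kinds of value come from the same libraries is not stated. The submitters' notes name Bowtie 0.12.2 and a mouse build (mm8), although the cells are human and the circRNA numbers begin with hg38. The authors deposited raw counts of junction reads per circRNA, and TPM, which are the same counts scaled to one common total and were not used further. They also deposited FPKM per transcript, summed here per gene symbol. Their comparisons with day 0 hold fold changes, p-values and q-values and were not used, nor were the 18 columns of library values in those tables and the 4 columns of lncRNA FPKM.

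Counts were divided by DESeq2 1.42.0 size factors (R 4.3.3), by the clean reads in the study's supplement, by total junction reads or by edgeR 4.0.16 TMM factors. Ratios carry exact conditional binomial 95% intervals (scipy 1.17.1, Python 3.11.15). A call needed 2-fold and an interval excluding no change. No minimum or pseudocount was applied to members. mRNA genes needed 1 FPKM in any library and 2-fold after 1 was added. The code was tested on simulated data. Printed circRNA numbers are the 2 highest lower bounds and the 2 lowest upper bounds of any step. Other members are described by rank or counts. The members and the gene lists were chosen with earlier results of these data known. One gene of the export and turnover list is not reported here.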

Additional observations from a re-analysis of the deposited data

How the results depend on the processing

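No paired analysis was possible because each day has 1 library, and no library could be left out of a step for the same reason. The alternatives were fixed with the design. Of 77 alternative values, 39 stayed within 1.5 times of a count or within the interval of a value, and 38 moved. The cause of the moves was not tested, except that stricter minimums and limits hold fewer circRNAs by construction. By clean reads, the circRNAs higher and lower were 76 and 14 for day 3 against day 0, 30 and 6 for day 6 against day 3, and 39 and 14 for day 9 against day 6, and the median log2 ratio was 0.32, 0.24 and 0.24. By total junction reads the median for day 3 against day 0 was 0.12. By TMM factors, 19 were higher and 10 lower for day 6 against day 3, and the median was 0.16 for that step and 0.052 for day 9 against day 6. A 4-fold limit left 23 higher and 9 lower, 6 and 5, and 3 and 14. With no limit of size, 21 were higher for day 6 against day 3 and 30 for day 9 against day 6. When a maximum of at least 20 reads was required, 12 were lower for day 6 against day 3, 11 were higher and 8 lower for day 9 against day 6, and the median was 0.26 for day 3 against day 0 and 0.11 for day 9 against day 6. The number above the minimum in every library was 300 at 5 reads, 131 at 10 and 61 at 20. Without the most abundant circRNA, the members had 86.6, 97.5, 114 and 142 junction reads per 1000000 clean reads from day 0 to day 9, and 61.2%, 54.8%, 55.4% and 55.0% of the junction reads. The mRNA lists gave the same counts past 2-fold with 0.1 FPKM added and with no FPKM minimum. Depth limits the rest, since most members have fewer than 20 reads in a library.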

Other observations

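Beyond the run of 9, 3 further runs of at least 4 members with consecutive numbers were present. They were picked out after their values were seen. A run of 5 had 555, 496, 650 and 759 summed reads from day 0 to day 9, with log2 ratios by median-of-ratios of -0.37 (-0.55 to -0.19), 0.08 (-0.09 to 0.26) and -0.06 (-0.21 to 0.10). By clean reads these were -0.06 (-0.24 to 0.12), 0.31 (0.14 to 0.48) and 0.20 (0.05 to 0.36), so the intervals of its later steps lay above no change on that scale only. Another run of 5 had 43, 38, 38 and 56 summed reads, and all its intervals included no change by both scalings. A run of 4 had 51, 109, 103 and 112 summed reads, with 0.89 (0.39 to 1.40) for day 3 against day 0 by median-of-ratios and 1.20 (0.71 to 1.71) by clean reads, and intervals that included no change afterwards by both.

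SPP1, which encodes the bone matrix protein osteopontin, had 0.794, 1.89, 5.14 and 7.45 FPKM from day 0 to day 9, and it was past 2-fold higher from day 3 to day 6.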
